A study of Mus musculus with 6 samples.

Results

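Oxidative phosphorylation is carried out in the inner mitochondrial membrane. Complexes I and II take electrons from NADH and succinate, complexes III and IV pass them on to oxygen, and complex V (ATP synthase) uses the resulting proton gradient to make ATP. Most subunits are encoded in the nucleus and a small core in mitochondrial DNA; the nuclear genes are described here. Pluripotent cells are known for strong glycolysis, and respiration is known to grow in many lineages as they differentiate. The genes were taken by name from the array's annotation: symbols starting with Nduf, Uqcr, Cox4 to Cox8 or Atp5, and the succinate dehydrogenase genes Sdha to Sdhd. Of 45101 probe sets, 179 carried such a symbol alone, and they stood for 90 of 18193 named genes. Another 10 probe sets named such a gene together with a second gene and were left unnamed.

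The arrays came from E14 mouse embryonic stem cells of the 129P2/OlaHsd background that carry a Venus reporter of Msgn1, a gene of the presomitic mesoderm. Cells of both days grew as a monolayer in serum-containing medium with 0.5% DMSO, R-spondin3 at 10 ng/mL, which strengthens Wnt signals, and Noggin at 200 ng/mL, which blocks BMP ligands. Cells positive for Venus were sorted on day 4 (3 arrays) or day 3 (3 arrays), so the comparison asks which transcripts differ between successive days of one reporter gate. The labels call the samples of a day biological replicates without naming separate cultures, so the p-values measure the spread between these samples. Values are MAS5 signals, a linear intensity per probe set, and changes are fitted log2 differences, day 4 minus day 3, ± SE. Unless stated otherwise, values run from replicate 1 to replicate 3.

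Of the 8 gate markers, 8 lay above the filter on dim genes, and 3 were higher and 1 (Msgn1 itself) lower at day 4. Their summed signal ranged over 4899 to 5143 at day 4 and 3008 to 3233 at day 3, a difference carried mostly by Rspo3, with a mean of 2695 at day 4 and 1275 at day 3. Mesp2 and Meox1 were the others that rose, and Tbx6, Dll1, Dll3 and Hes7 did not pass. Meox1 passed the filter only through its day 4 values (40.5 to 72.3), as its day 3 signals were 4.20 to 13.9. The pluripotency markers summed to 597 to 701 on day 4 arrays and 1293 to 1491 on day 3 arrays, with 3 of 4 lower. Heart and muscle markers, which belong to tissues rich in mitochondria, summed to 170 to 238 on day 4 arrays and 189.8 to 212 on day 3 arrays over 8 genes, of which only Myl7 changed, upward. Endoderm markers summed to 61.9 to 111 on day 4 arrays and 115 to 181 on day 3 arrays, and 2 of 3 tested, Sox17 and Foxa2, were lower. Endothelial and blood markers summed to 45.7 to 72.1 on day 4 arrays and 38.4 to 66.5 on day 3 arrays, and the 3 tested had adjusted p of 0.192 or more. Neural markers summed to 17.0 to 22.5 on day 4 arrays and 22.0 to 44.1 on day 3 arrays. Sox1 and Neurog2 lay under the filter, and Pax6 was tested and did not pass (change -0.86 ± 0.36, adjusted p = 0.112). The part of these shifts in the results below was not tested, and in bulk samples a change in the number of cells of a type and a change in RNA per cell cannot be told apart. Day 4 replicate 1 stood apart in a control of RNA quality. The ratio of 3′ to 5′ signal of the Gapdh control was 14.0 on day 4 replicate 1 and 2.63 and 3.19 on the other day 4 arrays, against 2.43 to 2.64 on the day 3 arrays.

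Most respiratory chain and ATP synthase genes had a fitted change near 0 between the days. Of the 90 genes, 86 passed the filter on dim genes (a mean signal over 13.5, set at the 40th percentile), and 14 changed: 7 were higher at day 4 and 7 were lower (limma, Benjamini-Hochberg adjusted p under 0.05). That is 16.3% of those tested, where 22.2% of all 12285 genes tested were called (11.5% higher and 10.7% lower). Of the lower genes, Ndufb1 passed the filter only through its day 3 values, and without it 6 were lower. At an unadjusted p under 0.05, 9 were higher and 14 lower, where 2262 and 2148 of all 12285 genes tested were. The median change was -0.03, against -0.01 over all genes tested, and the middle of the distribution was narrow: the lower and upper quartiles of the changes were -0.15 and 0.07, against -0.27 and 0.25 over all genes. The median size of a change was 0.13 for these genes and 0.26 for all genes. Their errors were smaller as well, with a median SE of 0.10 against 0.15. Many of these genes were bright: Ndufc2, for one, lay at percentile 98.8 of signal over all probe sets, whereas the filter lay at the 40th. Ndufb1, a dim member at percentile 47.3, had an SE of 0.53. The part of brightness in these differences from all genes was not tested.

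**Figure D1:**
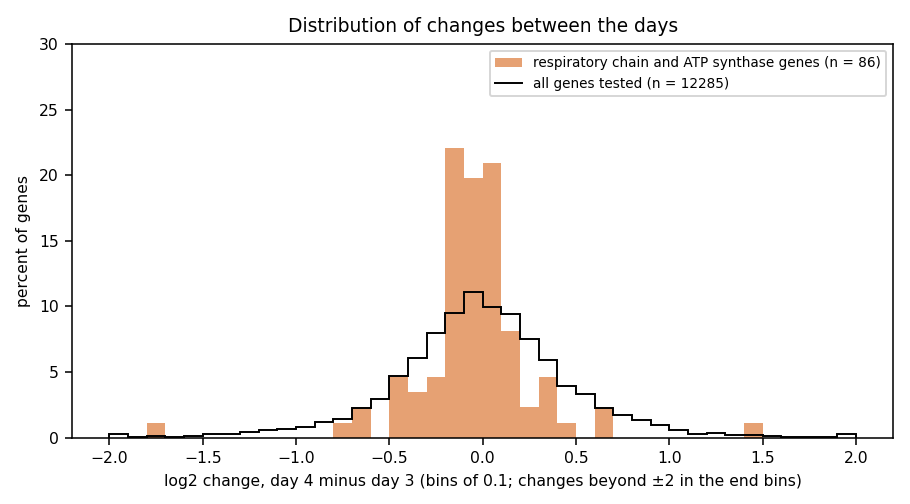
Percent of genes (vertical axis) in bins of log2 change, day 4 minus day 3 (horizontal axis), for the 86 respiratory chain and ATP synthase genes (filled) and all 12285 genes tested (line). The 3 bins from -0.2 to 0.1 hold 22.1%, 19.8% and 20.9% of the respiratory genes and 9.54%, 11.1% and 9.97% of all genes.

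The fitted intervals say how large a change the arrays could have missed. The 95% interval lay inside a 1.5-fold change in either direction for 68 of the 86 genes (79.1%), against 42.3% of all genes tested. This comparison did not match genes by brightness, and the 1.5-fold limit was chosen after the values had been seen. The 3 day 4 signals lay above all 3 day 3 signals in 9 genes and below them in 14, where 20.7% and 20.6% of all genes tested did so, and the days overlapped in the other 63. The median change was below 0 in the fit and under its alternatives other than cyclic loess normalization, where it was 0.006. Median centring gave 5 genes higher and 8 lower, with 21.8% of all genes called and a median change of -0.04 over all genes. Without a variance trend in the model, 5 of the 14 calls were kept (Cox6b2, Cox7a2l, Ndufaf3, Ndufaf4 and Atp5g1), and with probe sets of a gene averaged 6 were kept (Cox6b2, Cox7a2l, Ndufa6, Ndufaf3, Ndufaf4 and Sdhc).

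**Figure D2:**
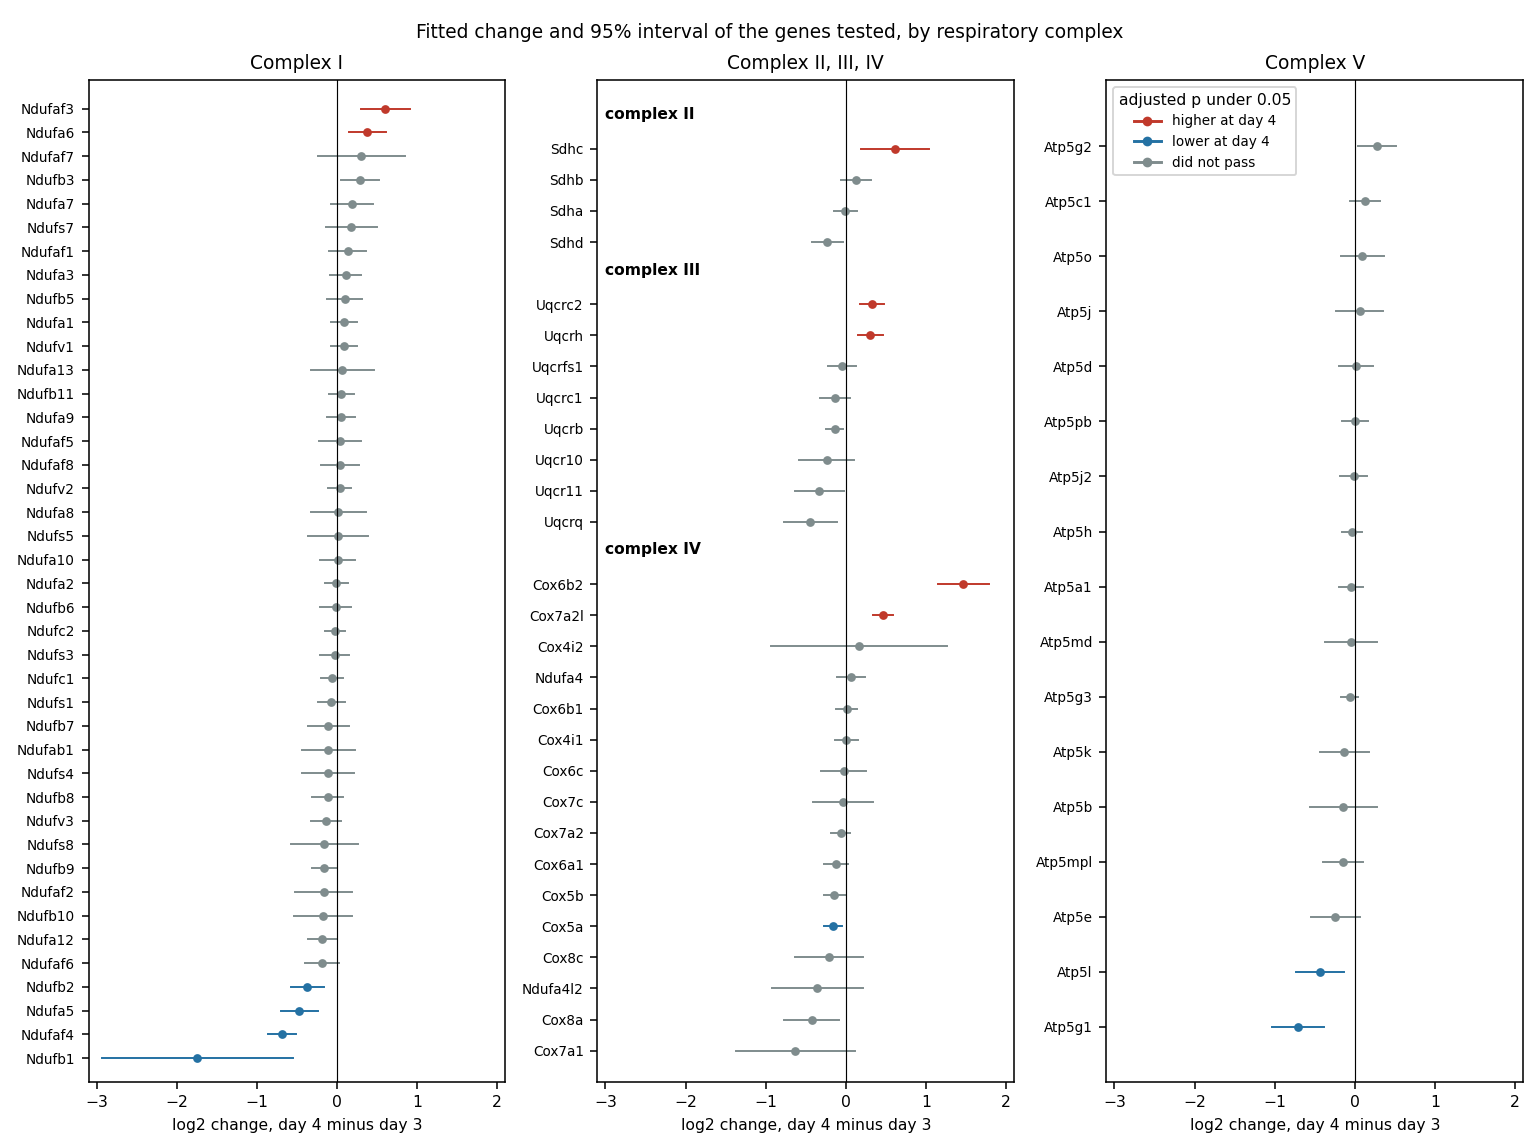
Fitted log2 change, day 4 minus day 3 (horizontal axis), with its 95% interval for each of the 86 genes tested, grouped by complex and ordered by change. Red points passed the threshold upward, blue points downward and grey points did not pass; most intervals in complexes I and V cover 0 and are short.

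Complex I, the NADH dehydrogenase, was represented by 42 genes, of which 41 were tested. Of these, 2 were higher and 4 lower, and the median change was -0.01. For this complex and those that follow, the share of all genes tested that was called is the 22.2% given above (11.5% higher and 10.7% lower). None of the 6 tested core subunits, which hold the flavin and iron-sulfur clusters of the electron path, passed the threshold, and at an unadjusted p under 0.05 the count was also 0. Ndufv1, which binds NADH, read 2931, 2590.0 and 2669 on day 4 and 2714, 2433 and 2552 on day 3 (change 0.09 ± 0.07, 95% interval -0.08 to 0.25). Ndufs1, the largest iron-sulfur subunit, read 1109.6, 1173 and 1174 on day 4 and 1273, 1193 and 1162 on day 3 (interval -0.24 to 0.10). The days overlapped for both genes. Ndufs3, of the quinone-binding module, and Ndufv2, an iron-sulfur subunit next to the NADH site, had intervals of -0.21 to 0.15 and -0.11 to 0.18. Ndufs7, whose iron-sulfur cluster hands electrons to quinone, was less closely bounded (-0.13 to 0.49). Ndufs8, an iron-sulfur subunit of the same path, read 1581, 1022 and 891 on day 4 and 1433, 1195 and 1163 on day 3. Its replicate 1 was the highest of each day, and its change of -0.16 ± 0.19 became -0.40 without day 4 replicate 1, which passed (adjusted p = 0.0122). All 6 core subunits had intervals inside a 1.5-fold change.

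Accessory subunits surround this core and stabilise it. Of 27 tested, 1 was higher and 3 lower. Ndufa5, a small subunit of the arm that faces the matrix, read 1393, 1830.0 and 1561 on day 4 and 2295, 2239 and 2051 on day 3. It fell by 0.47 on the log2 scale (SE 0.10, adjusted p = 0.0101), with each day 4 value below each day 3 value. Its second probe set was dimmer and did not pass (change -0.09). Ndufb2, of the membrane arm, read 776, 747 and 675 on day 4 and 1013, 904 and 922 on day 3 and fell by 0.37 (SE 0.09, adjusted p = 0.017). Its probe sets disagreed. A second one had a change of -0.37 (SE 0.19) and did not pass (adjusted p = 0.205 over all probe sets). The dimmest, with a signal of 58.3 to 80.8 on day 4 and 29.2 to 43.8 on day 3, rose by 0.93 ± 0.22 (adjusted p = 0.0185 over all probe sets). The direction for Ndufb2 thus depends on the probe set. The fall on the brightest probe set no longer passed when replicate 1 or 3 of day 3, or replicate 3 of day 4, was left out (adjusted p up to 0.0621). Ndufa6, a member of the LYR protein family, read 691, 748 and 695 on day 4 and 621, 529 and 498 on day 3 and rose by 0.38 ± 0.10 (adjusted p = 0.0273). The groups did not overlap, but the call needed each of replicates 2 and 3 of both days (adjusted p up to 0.123 when one was left out), and median centring ended it. Ndufb1 was dim, with 20.4, 4.25 and 16.0 on day 4 and 35.0, 39.4 and 37.3 on day 3. It was at least 2.27-fold lower at day 4 against the filter level (adjusted p = 0.0432), and did not pass when any of the day 3 arrays was left out (adjusted p up to 0.123). Ndufb1 passed the filter only through its day 3 values, its day 4 mean log2 signal being under the filter level, and without a filter it was not called.

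The other 23 tested accessory subunits did not pass, with changes between -0.18 (Ndufa12) and 0.29 (Ndufb3). Ndufb3, of the membrane arm, read 1517, 1142 and 1219 on day 4 and 1014, 1072 and 1072 on day 3, without overlap (adjusted p = 0.0858). The most closely bounded was Ndufc2, with 3870.3, 4022 and 4098 on day 4 and 4107, 4014 and 4064 on day 3 (interval -0.15 to 0.10). X-linked Ndufa1 and Ndufb11, both of the membrane arm, had changes of 0.09 ± 0.07 and 0.05 ± 0.07. Ndufab1, the mitochondrial acyl carrier protein, overlapped between days at 1195, 907 and 798 on day 4 and 1173, 956 and 961 on day 3, yet a dim probe set of the same gene rose by 1.59 ± 0.21 (114, 83.2 and 88.1 on day 4, 30.6, 25.9 and 38.7 on day 3, adjusted p = 0.00151 over all probe sets). Ndufb4 lay under the filter at 5.76 to 11.5 on day 4 and 1.09 to 5.65 on day 3 and was not tested.

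Assembly factors build complex I and are not part of the finished enzyme. Of the 8 genes of this kind, all tested, Ndufaf4 was lower and Ndufaf3 higher at day 4. The products of both are known to act together on the quinone-binding module. Ndufaf4 read 889.9, 873 and 802 on day 4 and 1433, 1347 and 1354 on day 3. It fell by 0.69 (SE 0.08, adjusted p = 0.000389), a signal 0.62 times that of day 3 (95% interval 0.549 to 0.701). Its second probe set read 532, 495 and 496 on day 4 and 711, 785 and 814 on day 3 and fell by 0.60 (SE 0.09, adjusted p = 0.00306 over all probe sets). The fall passed in all 6 fits that left out an array and in the 11 other alternative fits. Ndufaf3 read 143, 135 and 130.3 on day 4 and 102, 79.7 and 88.7 on day 3 and rose by 0.60 ± 0.14 (adjusted p = 0.0123). It did not pass when replicate 2 or 3 of day 3 was left out (adjusted p up to 0.0531). The day 4 values of the pair thus stood apart from day 3 in opposite directions. Ndufaf7, a methyltransferase, read 90.9, 174 and 175 on day 4 and 126, 118 and 99.5 on day 3; it passed upward without day 4 replicate 1 (change 0.61, adjusted p = 0.00675). Ndufaf1, Ndufaf2, Ndufaf5, Ndufaf6 and Ndufaf8 did not pass, with changes between -0.19 and 0.13.

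The promoter of Ndufaf4 is shown because this gene had the smallest p of complex I. It runs from 250 bases before to 50 after the annotated start, 5′ to 3′, from RefSeq in the GRCm38.p6 build (chr4:24897833-24898132, plus strand). Capitals, here and in the promoters shown later, mark matches on either strand to letters known from factors of respiratory genes or their relatives: the palindromic core of the nuclear respiratory factor NRF1, which is the longest run of capitals below; CGGAAG, a core of ETS factors such as GABP; AAGATGGC, a core of YY1; and CACGTG, the E-box. The ETS and YY1 letters can overlap at AAG. A match is a description of the letters only.
Ndufaf4: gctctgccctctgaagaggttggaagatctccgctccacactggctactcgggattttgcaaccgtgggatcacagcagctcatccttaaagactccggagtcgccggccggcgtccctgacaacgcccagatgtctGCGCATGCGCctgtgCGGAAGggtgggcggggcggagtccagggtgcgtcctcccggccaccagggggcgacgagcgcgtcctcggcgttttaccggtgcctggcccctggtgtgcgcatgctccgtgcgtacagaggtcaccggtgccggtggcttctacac
Of the 90 genes, 74 had a promoter in the RefSeq table. The NRF1 letters were in 6 of them (8.11%), the ETS letters in 35 (47.3%), the YY1 letters in 10 (13.5%) and the E-box in 6 (8.11%). Among 9924 genes that were tested and had a promoter, the shares were 2.30%, 34.1%, 5.24% and 11.8%, and among all 27025 genes with a promoter 1.07%, 18.8%, 3.19% and 8.09%. The promoters of the respiratory genes were 58.1% G or C, against 53.8% for all promoters. Of the 14 changed genes 12 had a promoter, and 1 of these held the NRF1 letters, 6 the ETS letters, 0 the YY1 letters and 2 the E-box.

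Complex II, succinate dehydrogenase, is the one complex shared with the tricarboxylic acid cycle, and all 4 of its genes were tested. Sdhc, a membrane anchor, was the only one past the threshold. It read 628, 369 and 385 on day 4 and 322, 292 and 267 on day 3. The lowest day 4 value lay above the highest day 3 value, but day 4 replicate 1 stood far above the other 2 arrays of its day. Sdhc rose by 0.61 ± 0.19 (adjusted p = 0.0467), and by 0.36 without day 4 replicate 1 (adjusted p = 0.0236); it did not pass when any of the day 3 arrays was left out (adjusted p up to 0.155), or with median centring or cyclic loess. The other anchor, Sdhd, did not pass, with 1011, 1031 and 1072 on day 4 and 1346, 1156 and 1163 on day 3 (change -0.23 ± 0.09, adjusted p = 0.0806). The catalytic flavoprotein Sdha read 2162, 2082 and 2086 on day 4 and 2179.6, 2061 and 2129 on day 3, with an interval of -0.15 to 0.13. The iron-sulfur subunit Sdhb had an interval of -0.07 to 0.31.

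Complex III passes electrons from quinol to cytochrome c. Of 8 genes, all tested, 2 were higher and 0 lower. Uqcrc2, a large matrix-facing core protein, read 5251, 5128 and 5421 on day 4 and 3871, 4524 and 4223 on day 3. It rose by 0.33 ± 0.07 (adjusted p = 0.00772), without overlap, and passed in all 6 fits that left out an array. Its second probe set changed by 0.12 and did not pass. Uqcrh, the hinge protein that helps dock cytochrome c, read 1785, 1652 and 1669.5 on day 4 and 1401, 1347 and 1384 on day 3 and rose by 0.31 ± 0.07 (adjusted p = 0.0125). It did not pass when replicate 2 or 3 of day 3 was left out (adjusted p up to 0.0575). The other members had fitted changes below 0 and did not pass. Uqcrfs1, the Rieske iron-sulfur protein that carries the electrons, read 1899, 1856 and 1929.9 on day 4 and 2134, 1802 and 1944 on day 3 (interval -0.22 to 0.13). Uqcrc1, the partner of Uqcrc2, read 906, 799 and 889 on day 4 and 938, 963 and 946 on day 3 (change -0.14 ± 0.08). The days did not overlap for Uqcrc1 although it did not pass (adjusted p = 0.266). The small subunit Uqcrq read 451, 299 and 328 on day 4 and 488, 449.5 and 507 on day 3. Its change was -0.44 ± 0.15 (adjusted p = 0.0613), and -0.62 without day 4 replicate 1 (adjusted p = 0.000801). Uqcrb, another small subunit, read 9459, 9279 and 8794 on day 4 and 10304, 9905 and 10075 on day 3 (change -0.14 ± 0.05, adjusted p = 0.0657, and 0.0206 without day 4 replicate 1). Uqcr10 and Uqcr11, also small subunits, had changes of -0.24 ± 0.15 and -0.33 ± 0.14.

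Complex IV, cytochrome c oxidase, reduces oxygen. Its nuclear subunits come in general isoforms and in isoforms of particular tissues. Of 10 general subunits tested, 1 was lower and 0 higher. Cox5a, which faces the matrix, read 5545, 5471 and 5517 on day 4 and 5969.9, 6132 and 6335 on day 3. It fell by 0.16 (SE 0.05, adjusted p = 0.0497), at the edge of the threshold, and of the fits leaving out 1 array only the one without day 4 replicate 1 kept the call (adjusted p up to 0.197 in the others); cyclic loess ended it. Cox5b, its neighbour in the enzyme, read 5525, 5358 and 5124 on day 4 and 5930.1, 5638 and 6122 on day 3, again without overlap, and did not pass (change -0.14 ± 0.06, adjusted p = 0.0968). Cox4i1, the general form of the largest nuclear subunit, read 4636, 4669 and 4577 on day 4 and 5016, 4374 and 4450.4 on day 3 (interval -0.14 to 0.15). The intervals of Cox6b1 (-0.12 to 0.13), Cox7a2 (-0.19 to 0.05) and Ndufa4 (-0.11 to 0.24), general subunits as well, were about as short. Ndufa4 was first assigned to complex I and is now counted in complex IV. Cox8a, the general form of subunit 8, did not pass on its brightest probe set by mean log2 signal (change -0.43 ± 0.15, adjusted p = 0.0732). That probe set read 126, 161 and 117 on day 4 and 181, 160 and 199 on day 3. A second probe set of Cox8a read 122, 52.0 and 46.4 on day 4 and 323, 239 and 333 on day 3 and fell by 2.15 (SE 0.33, adjusted p = 0.00282 over all probe sets).

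Cox6b2, known as the testis form of subunit 6b, had the largest rise of the 86 genes. It read 229, 228 and 209 on day 4 and 82.7, 67.7 and 92.6 on day 3, so that every day 4 array was above every day 3 array by more than the range within a day. It rose by 1.47 ± 0.14 (adjusted p = 0.000177), or 2.76-fold (95% interval 2.21 to 3.45), and passed in all 6 fits that left out an array and in the 11 other alternative fits. The general form Cox6b1 read 5729, 5606 and 5294 on day 4 and 5723, 5312 and 5507 on day 3 (change 0.01 ± 0.06). The other tested tissue isoforms did not pass. The testis form Cox8c read 80.5, 94.7 and 89.4 on day 4 and 114, 76.4 and 121 on day 3 (interval -0.63 to 0.21). Cox7a1, the heart and muscle form of subunit 7a, read 13.2, 27.2 and 17.6 on day 4 and 33.7, 27.7 and 25.1 on day 3 (change -0.63 ± 0.33, adjusted p = 0.201). Cox4i2, a form of lung and hypoxic cells, and Ndufa4l2, a hypoxia-induced relative of Ndufa4, had wide intervals (-0.93 to 1.26 and -0.92 to 0.21). The muscle forms Cox6a2 and Cox8b and the isoform Cox7b2 lay under the filter. Their signals were 3.65 to 18.0, 3.05 to 8.05 and 2.45 to 9.63 on day 4 arrays and 15.3 to 28.0, 2.21 to 8.79 and 4.55 to 9.11 on day 3 arrays.

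Cox7a2l encodes a factor that joins complexes III and IV into supercomplexes. It read 4294, 4464 and 4343 on day 4 and 3205, 3113 and 3170.1 on day 3. It rose by 0.47 ± 0.05 (adjusted p = 0.000444), or 1.38-fold, with a 95% interval of 0.34 to 0.59 on the log2 scale, and the days were far apart relative to the spread within each. Its second probe set read 2978, 3099.7 and 3030 on day 4 and 2349, 2116 and 2109 on day 3 and rose by 0.47 ± 0.07 (adjusted p = 0.00239 over all probe sets), and the remaining one did not pass (change 0.24). The rise passed in all 6 fits that left out an array and in the 10 other alternative fits that tested the gene. Its relative Cox7a2, the general subunit 7a, did not pass, as given above. The promoters of Cox6b2, of its general counterpart Cox6b1 and of Cox7a2l are shown to set the genes with the smallest p of complex IV beside a relative that did not pass. They lie in GRCm38.p6 at chr7:4753045-4753344, minus strand, at chr7:30626065-30626364, minus strand, and at chr17:83514284-83514583, minus strand.
Cox6b2: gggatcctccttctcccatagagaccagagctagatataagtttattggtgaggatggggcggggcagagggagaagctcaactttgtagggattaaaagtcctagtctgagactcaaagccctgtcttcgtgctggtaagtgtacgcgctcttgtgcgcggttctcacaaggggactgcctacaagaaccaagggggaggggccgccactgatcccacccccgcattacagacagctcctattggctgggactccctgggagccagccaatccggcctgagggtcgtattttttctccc
Cox6b1: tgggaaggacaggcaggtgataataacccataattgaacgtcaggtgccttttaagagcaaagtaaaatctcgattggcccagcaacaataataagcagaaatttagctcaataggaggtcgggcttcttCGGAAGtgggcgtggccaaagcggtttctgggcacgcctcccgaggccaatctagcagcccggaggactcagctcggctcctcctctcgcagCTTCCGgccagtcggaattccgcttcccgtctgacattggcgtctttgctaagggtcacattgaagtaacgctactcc
Cox7a2l: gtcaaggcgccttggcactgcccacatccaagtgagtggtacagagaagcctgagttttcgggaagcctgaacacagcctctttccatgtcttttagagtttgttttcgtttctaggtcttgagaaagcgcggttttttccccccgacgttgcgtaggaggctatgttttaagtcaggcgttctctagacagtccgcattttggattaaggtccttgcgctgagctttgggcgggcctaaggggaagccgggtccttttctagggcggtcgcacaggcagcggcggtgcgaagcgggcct
The Cox6b1 window held the ETS letters at 2 places, and the windows of Cox6b2 and Cox7a2l held none of the searched letters.

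**Figure D3:**
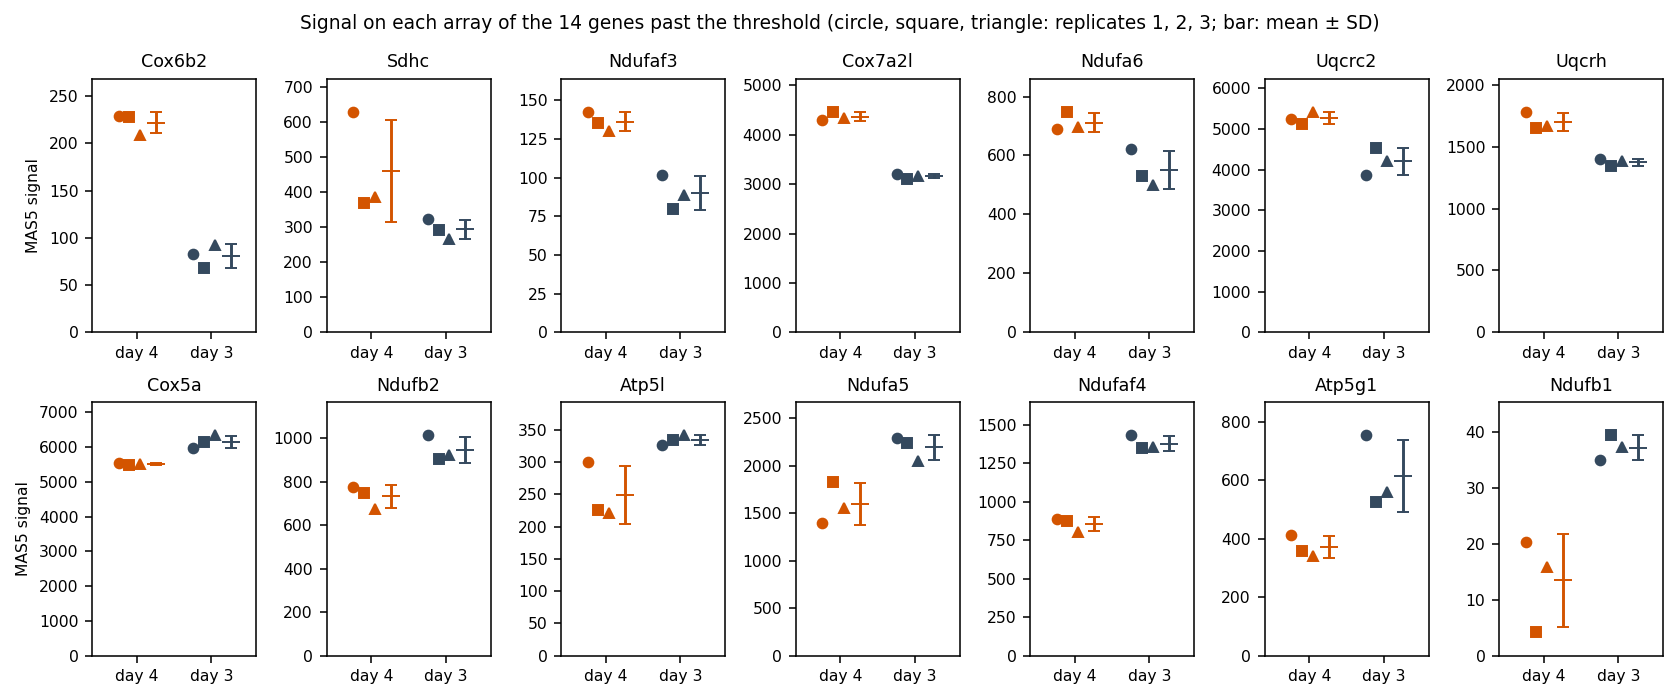
MAS5 signal (vertical axes, from 0, one scale per gene) on each array for the 14 genes past the threshold, day 4 at left and day 3 at right of each panel, with the mean and SD beside the points. Cox6b2, Cox7a2l and Ndufaf4 show tight, well separated groups, whereas Sdhc rests in part on the high day 4 replicate 1.

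Complex V, ATP synthase, was represented by 17 genes, all tested. None was higher and 2 were lower. At an unadjusted p under 0.05 the counts were 1 higher and 2 lower, where 2262 and 2148 of all 12285 genes tested were. The catalytic head is built from the alpha and beta subunits. Atp5a1, the alpha subunit, read 4095, 4777 and 4546 on day 4 and 4537, 4653 and 4625 on day 3 (interval -0.19 to 0.10). Atp5b, the beta subunit, read 2926, 4749.5 and 5261 on day 4 and 4355, 5233 and 4315 on day 3. Its interval of -0.56 to 0.28 was wide for the complex, with day 4 replicate 1 far below the other day 4 arrays. Atp5c1, the gamma subunit of the central stalk, read 6424, 5105 and 5320.4 on day 4 and 5301, 5040.1 and 5012 on day 3 (change 0.13 ± 0.08). A dim second probe set of Atp5c1 read 147, 157 and 154 on day 4 and 71.9, 79.8 and 68.3 on day 3 and rose by 1.06 ± 0.13 (adjusted p = 0.00113 over all probe sets). Atp5d, the delta subunit of the central stalk, had a change of 0.01 ± 0.10. In the peripheral stalk, intervals ran from -0.16 to 0.16 for Atp5pb (subunit b) and -0.16 to 0.09 for Atp5h (subunit d), and were wider for Atp5j (subunit F6, -0.23 to 0.36) and Atp5o (OSCP, -0.17 to 0.36). Atp5l, subunit g at the dimer interface of the enzyme, read 300.3, 226 and 221 on day 4 and 326, 334 and 342 on day 3 and fell by 0.44 (SE 0.13, adjusted p = 0.0405). The days did not overlap, but of the fits leaving out 1 array only the one without day 4 replicate 1 kept the call (adjusted p up to 0.129 in the others).

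The rotor ring is made of subunit c, whose mature protein is the same whether it comes from Atp5g1, Atp5g2 or Atp5g3. Of these genes only Atp5g1 passed the threshold. Atp5g1 read 413, 359 and 342 on day 4 and 754, 527 and 559.9 on day 3, without overlap. It fell by 0.71 (SE 0.14, adjusted p = 0.00739), a signal 0.611 times that of day 3 (95% interval 0.488 to 0.764), and passed in all 6 fits that left out an array. Averaged with its second probe set, which lies under the filter, its change was 0.017 and did not pass. Atp5g2 read 1253, 1075 and 1079.9 on day 4 and 1066, 858 and 897 on day 3. The day 4 values lay above all day 3 values, but the change of 0.28 ± 0.11 did not pass (adjusted p = 0.0915); it passed without day 3 replicate 1 (0.37, adjusted p = 0.0435). Atp5g3 read 6946, 7055 and 6674 on day 4 and 7247, 7150.5 and 7205 on day 3 (change -0.06 ± 0.05, adjusted p = 0.372). The interval of Atp5g1 (-1.03 to -0.39) lay below those of Atp5g2 (0.04 to 0.51) and Atp5g3 (-0.17 to 0.04), and the difference between the genes was not tested. The promoters of these genes of one protein are shown side by side, from GRCm38.p6 at chr11:96075582-96075881, minus strand, at chr15:102670998-102671297, minus strand, and at chr2:73911277-73911576, minus strand.
Atp5g1: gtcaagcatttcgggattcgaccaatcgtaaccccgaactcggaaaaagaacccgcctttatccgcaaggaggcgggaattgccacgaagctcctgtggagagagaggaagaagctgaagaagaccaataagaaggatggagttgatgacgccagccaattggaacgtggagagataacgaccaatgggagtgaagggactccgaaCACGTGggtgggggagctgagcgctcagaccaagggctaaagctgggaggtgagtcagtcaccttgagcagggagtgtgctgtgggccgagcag
Atp5g2: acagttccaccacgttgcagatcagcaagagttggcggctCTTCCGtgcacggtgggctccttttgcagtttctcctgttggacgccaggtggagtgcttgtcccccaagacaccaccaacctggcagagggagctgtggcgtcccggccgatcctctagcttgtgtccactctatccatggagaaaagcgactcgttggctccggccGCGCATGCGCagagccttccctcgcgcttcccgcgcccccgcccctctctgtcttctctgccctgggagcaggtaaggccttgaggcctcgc
Atp5g3: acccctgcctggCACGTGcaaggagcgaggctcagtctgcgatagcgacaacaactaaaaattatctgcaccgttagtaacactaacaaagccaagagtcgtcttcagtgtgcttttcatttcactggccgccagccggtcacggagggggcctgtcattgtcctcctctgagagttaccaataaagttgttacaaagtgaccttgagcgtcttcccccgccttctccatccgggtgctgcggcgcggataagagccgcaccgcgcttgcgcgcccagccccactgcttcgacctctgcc
Atp5g2 held the NRF1 and the ETS letters, and Atp5g1 and Atp5g3 each held the E-box and neither of those.

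**Figure D4:**
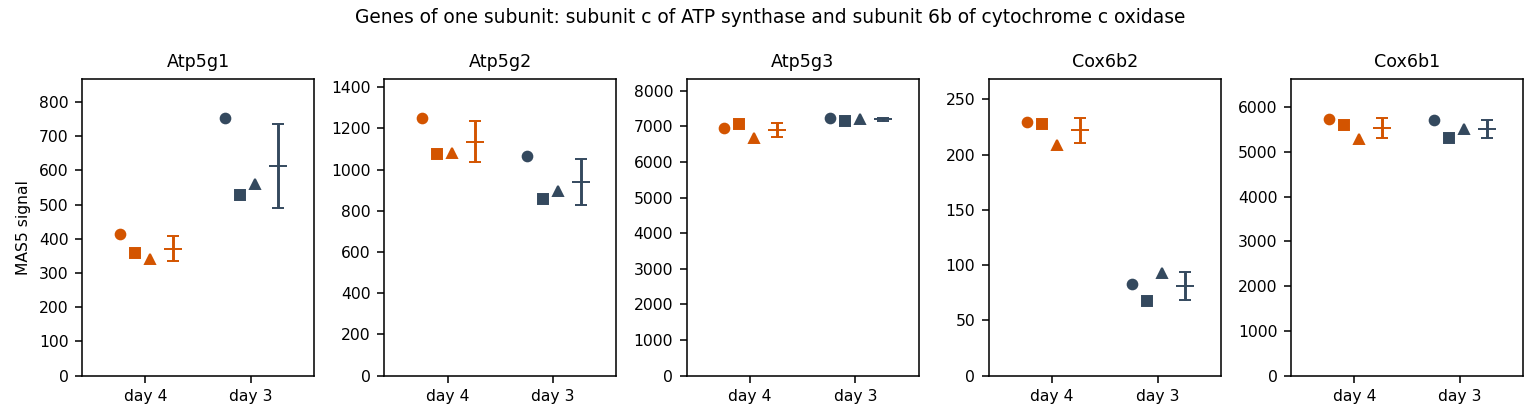
MAS5 signal (vertical axes, from 0, one scale per gene) on each array for the subunit c genes Atp5g1, Atp5g2 and Atp5g3 and the subunit 6b genes Cox6b2 and Cox6b1, day 4 at left and day 3 at right, with mean and SD. Circles, squares and triangles are replicates 1, 2 and 3; Atp5g1 is lower and Cox6b2 higher on all day 4 arrays, while Cox6b1 overlaps.

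Partners of the respiratory chain outside the naming rule were read on the same arrays. Cycs, which encodes the electron carrier cytochrome c, was at 6524 ± 356 on day 4 and 8240.3 ± 359.9 on day 3 (SD, n = 3 arrays per day, as for the signals that follow) and fell by 0.34 (SE 0.06, adjusted p = 0.00353). Cyc1, the cytochrome of complex III, had a change of -0.14 ± 0.06 and did not pass (adjusted p = 0.105). Of 34 tested assembly factors and inhibitors, 6 were higher and 2 lower, with a median change of 0.03. For this list and those that follow, the share of all genes tested that was called is the 22.2% given above (11.5% higher and 10.7% lower). Among them, Nubpl, an iron-sulfur factor for complex I, rose by 0.71 ± 0.12, and Cox20, a chaperone of complex IV, by 0.61 ± 0.13 (adjusted p = 0.00296 and 0.00815). Sdhaf2, which attaches the flavin to Sdha, fell by 0.83 (SE 0.18), with 149 ± 39.3 on day 4 and 259 ± 26.5 on day 3 (adjusted p = 0.00967). Of 18 tested regulators of mitochondrial biogenesis, 2 were higher and 0 lower: Gabpb1, a subunit of the ETS factor GABP, rose by 0.63 ± 0.12, and Polg2, an accessory subunit of the mitochondrial DNA polymerase, by 0.40 ± 0.10 (adjusted p = 0.00607 and 0.0193). Of 7 tested carriers and channels, 0 were higher and 2 lower. Mpc1, a subunit of the mitochondrial pyruvate carrier, fell to 48.7 ± 6.95 on day 4, against 111 ± 5.37 on day 3 (change -1.19 ± 0.16, adjusted p = 0.000902). The ADP/ATP carrier Slc25a5, which exports the ATP made by complex V, was at 4717 ± 42.9 on day 4 and 6027 ± 528 on day 3 and fell by 0.35 (SE 0.07, adjusted p = 0.00564). Of 14 tested genes of protein import and cristae, 0 were higher and 2 lower. They were Immt, a scaffold of the cristae junctions, which fell by 0.36 (SE 0.09), and the chaperonin Hspd1, which fell by 0.16 (SE 0.05; adjusted p = 0.0228 and 0.0426).

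The probe sets of one gene did not always move alike. Of 164 probe sets above the filter, 10 were higher and 10 lower, 12.2%, where 17.7% of all 27026 probe sets tested were called (9.96% higher and 7.78% lower). The probe sets used for the changed genes Ndufb1, Atp5l, Sdhc and Cox5a did not pass here (adjusted p = 0.0537, 0.0540, 0.0591 and 0.0694 over all probe sets). Another tested probe set existed for 47 of the genes, and in 27 of these all pointed the same way. In 7 genes that did not pass on the brightest probe set, another one did: upward in Atp5c1 and Ndufab1, and downward in Cox8a, Atp5k, Ndufa12, Ndufs4 and Uqcr10. Among changed genes, 8 had a further probe set above the filter; in 7 of them every probe set pointed the same way, and Ndufaf4 and Cox7a2l had a second one past the threshold.

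Day 4 replicate 1, the array with the high control ratios, moved the counts of these genes. It lay farthest from the other arrays of its day in 50 of the 86 genes (58.1%), against 53.9% of all genes tested. Day 3 replicate 1 lay farthest in 52 of the 86 (60.5%), against 43.6% of all genes tested. Leaving out that day 3 array gave 8 genes higher and 3 lower, with 16.1% of all genes called. Without day 4 replicate 1, 8 genes were higher and 18 lower, while 28.7% of all genes tested were called. The 14 genes above were all among these 26, and the additional ones were Ndufaf7 (higher) and Ndufs8, Ndufa12, Ndufaf2, Ndufb7, Ndufb9, Ndufb10, Uqcrb, Uqcrq, Cox5b, Cox6a1 and Atp5mpl (lower). Their changes in the lower direction lay between -0.62 (Uqcrq) and -0.16 (Uqcrb). The part of RNA quality in these counts was not tested beyond leaving the array out.

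**Figure D5:**
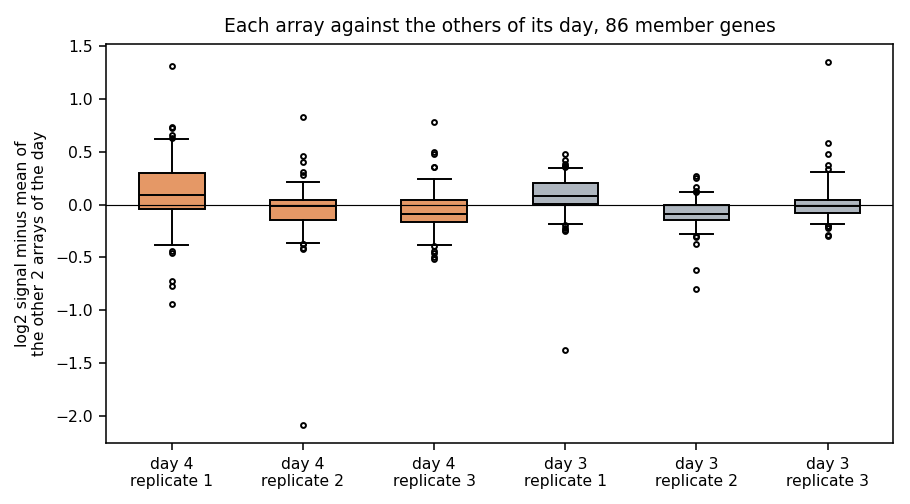
Log2 signal of each array minus the mean of the other arrays of its day (vertical axis) for the 86 genes; boxes span the quartiles with the median, whiskers the 5th to 95th percentiles, and points the genes beyond. The medians of replicate 1 are 0.09 on day 4 and 0.08 on day 3, and the box of day 4 replicate 1 is the widest.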

How the data were processed

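The authors deposited linear intensities of 45101 probe sets from 6 Affymetrix arrays, made with MAS5 per the submitters' processing notes. The software version and scaling target are not stated in the sources used here. The labels' protocols describe amplification in 2 rounds, which weighs transcripts toward their 3′ ends. The arrays' trimmed means ran from 160.4 to 162.1, so no further scaling was applied.

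Probe sets were named from the platform annotation; those naming several genes stayed unnamed. In R 4.3.3 with limma 3.58.1, log2 signal was fitted with day as the only term (eBayes with trend, 2-sided, Benjamini-Hochberg adjustment, threshold 0.05). Each gene took its brightest probe set by mean log2 signal over all 6 arrays, and 12285 genes passed the filter (40th percentile, a signal of 13.5). A second fit took each of 27026 probe sets on its own. No detection calls were used here, so for Ndufb1 a fold is also given with day 4 signal under the filter level raised to that level.

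The alternatives were an offset of 4.14, quantile, median and cyclic loess normalization, filtering at the 60th percentile or not at all, the mean over probe sets, no probe sets with the suffixes _x_at, _s_at or _a_at, eBayes without trend, array weights, a replicate block, a threshold of 0.10 and leaving out each array. Leaving out replicate 1 of both days was added after the data were seen. Members, lists and motifs were chosen with earlier results of these data known. Named were the tested core subunits of complex I, the tissue isoforms, the 4 Sdh genes, and in each complex up to 6 genes past the threshold with the smallest p, with further members as examples; of the other lists, up to 3 each past the threshold. Replicate numbers are shared between days, but over all genes the deviations of same-numbered arrays were hardly correlated (0.07, 0.01 and -0.0005), so the main fit has no block.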

Additional observations from a re-analysis of the deposited data

How the results depend on the processing

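The counts of changed genes depended on single arrays and on the variance model, while the median change stayed between -0.06 and 0.01 under the alternatives run. Leaving out 1 array gave 3 to 8 genes higher, 3 to 18 genes lower, 5 to 14 probe sets higher and 5 to 23 probe sets lower; the most lower genes came without day 4 replicate 1, and 12.9% to 28.7% of all genes were called in these fits. Without replicate 1 of both days, where 32.1% of all genes were called, 11 genes were higher and 17 lower. The probe set counts there were 19 higher and 26 lower. All shares in this paragraph are of genes, and for probe sets the share called is given for the main fit alone (17.7%). Without the variance trend (16.8% of all genes called), 3 genes were higher and 2 lower, with 5 probe sets lower. Array weights, with 35.1% of all genes called, gave 9 genes higher and 18 lower, 17 probe sets higher and 22 lower. A threshold of 0.10, with 30.8% of all genes called, gave 9 genes higher and 12 lower, and 18 probe sets lower. No filter gave 6 genes higher and 4 lower (13.2% of all genes called), and the mean over probe sets 6 higher and 2 lower (14.3%). Without the suffixed probe sets (21.2% of all genes called), 5 genes were higher and 4 lower, and 6 probe sets were higher and 6 lower, among 67 genes tested. The replicate block, with 23.5% of all genes called, gave 8 genes higher and 10 lower, including all 14 of the fit without it. With the block, Atp5g2 passed upward (adjusted p = 0.0339) and Uqcrb, Uqcrq and Uqcr11 passed downward (adjusted p = 0.0441, 0.0371 and 0.0263). The change of Atp5g1 turned to 0.017 with the mean over its probe sets, one of which lies under the filter, and that of Ndufb2 to 0.062 with the mean and to 0.93 without suffixed probe sets. Quantile normalization, median centring and cyclic loess kept 14, 12 and 12 of the 14 calls. The small number of arrays limits the precision of all values.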

Other observations

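Replicate 1 was the brightest array of its day for many of these genes on both days. It was highest on day 4 and on day 3 at once in 37 of the 86 genes (43.0%), against 19.9% of all genes tested. Replicate 2 was highest on both days in 2 genes and replicate 3 in 2, against 7.55% and 9.50% of all genes tested. Taken day by day, replicate 1 was highest in 61.6% of these genes on day 4 and 64.0% on day 3. Over all genes tested, these shares were 43.0% and 40.6%. Over the 86 genes, the deviations of the replicate 1 arrays from their day means were hardly correlated between days (-0.03). Across all pairs of a day 4 and a day 3 array, this correlation ran from -0.12 to 0.25. Whether the days share a replicate 1 effect was not tested. The median log2 difference of replicate 1 from the other arrays of its day was 0.09 on day 4 and 0.08 on day 3 for these genes, and 0.02 on both days over all genes tested. Gapdh control ratios of 3′ to 5′ signal were 14.0 on day 4 replicate 1 and 2.43 on day 3 replicate 1, so the high control ratio was seen on one of these arrays alone. The labels do not say what a replicate number shares between days.

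Several of the larger changes lay in probe sets of a gene that were not its brightest by mean log2 signal over all arrays. The Cox8a one was brighter than the probe set used for the gene on day 3 (mean 298 against 180) and dimmer on day 4 (73.4 against 135). Those of Ndufab1 (1.59), Atp5c1 (1.06) and Ndufb2 (0.93) were higher at day 4, and those of Cox8a (-2.15) and Ndufs4 (-1.24) were lower, each past the threshold over all probe sets. Of the 10 probe sets naming a second gene, 9 were tested, 1 was higher and 1 lower, with changes between -0.37 and 0.43.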
